A study of Mus musculus with 4 samples.

Results

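Vitamin A travels in blood as retinol bound to the carrier Rbp4 and enters cells through the receptor Stra6. Inside cells Rdh10 oxidizes retinol to retinal, the Aldh1a enzymes oxidize retinal to retinoic acid, Crabp1 and Crabp2 bind retinoic acid in the cytosol, and Cyp26b1 breaks it down. Retinoic acid acts through nuclear receptors, and in the growth plate and in bone-forming cells both its excess and its lack disturb cartilage maturation and mineralization. The 9 genes described here are these carriers and enzymes: Rbp4, Stra6, Rdh10, Aldh1a1, Aldh1a2, Aldh1a3, Cyp26b1, Crabp1 and Crabp2. All 9 symbols were found among the 55487 Ensembl gene IDs of the deposited count table through the GRCm38 annotation. The set was picked because Rbp4 is among the leading genes that were lower after ovariectomy in these same libraries. The fold change of Rbp4 is therefore a description here, without a p-value, and the counts of the set are not evidence about retinoid genes.

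The libraries are bulk RNA-seq of wild-type mouse skeletal stem cells from ovariectomized mice (2 libraries, Ovx 1 and 2) and from sham-operated mice (2 libraries, sham 1 and 2), all with the time 8 weeks. The titles of all libraries, Ovx and sham, end in the word control, and the titles do not say what it stands for. Ovariectomy removes the ovaries, the main source of oestrogen, and the title of the series sets it in osteoporosis. Cells were freed from the metaphysis of long bones with collagenase and sorted by flow cytometry on the stains CD51, CD200, CD105, CD90 and 6C3, with CD45, Ter119 and Tie2 for blood and vessel cells. The labels say neither how each stain was gated, nor whether the time is an age or runs from surgery, nor whether a library holds 1 animal or a pool. The p-values therefore cover only library-to-library spread, part or all of which may be technical.

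The libraries held 23228031 and 18291436 counts (Ovx 1 and 2) and 22935095 and 23721078 counts (sham 1 and 2). Of the sort antigens, Itgav (CD51) was at 69.0 and 72.0 CPM in Ovx and 70.4 and 67.3 CPM in sham libraries, and Cd200, the 1 antigen called (lower by edgeR, adjusted p = 0.0462, but 0.0531 with library totals), at 173 and 155 CPM in Ovx and 237 and 305 CPM in sham libraries, where CPM (counts scaled to library size) uses TMM-adjusted totals. Ptprc (CD45) was at 3.55 and 6.44 CPM in Ovx and 9.55 and 5.25 CPM in sham libraries, and Thy1 (CD90) had between 3 and 5 counts in each library. Enpep (6C3) was at 4.40 and 3.64 CPM in Ovx and 1.52 and 1.91 CPM in sham libraries, and Eng (CD105) at 75.2 and 83.1 CPM in Ovx and 21.6 and 52.1 CPM in sham libraries. Eng was not called (log2 fold change 1.10 ± 0.35 SE, edgeR adjusted p = 0.1496). It was called higher with limma-voom (adjusted p = 0.0471), unfiltered (1.34e-08), over genes averaging 5 CPM or more (0.0481) and with the replicate block (0.0121). The log2 fold change of Eng was 0.60 without sham 1 and 1.89 without sham 2. A fit without 1 library has 1 library left in that group and holds no spread of that group. Tek, which codes for Tie2 of vessel cells, stood at 7.53 and 9.76 CPM in Ovx and 0.223 and 5.52 CPM in sham libraries, so the sham libraries differed from each other. In log2 CPM of the tested genes, the sham libraries correlated at 0.930 and the Ovx libraries at 0.959. Pairs of 1 Ovx and 1 sham library correlated at between 0.908 and 0.928, so the sham libraries were hardly closer to each other. Of 17120 genes with enough reads to test, edgeR's quasi-likelihood test called 716 genes (4.18%), 510 higher (2.98%) and 206 lower (1.20%) after ovariectomy at a Benjamini-Hochberg adjusted p under 0.05, and 718 and 156 with library totals as the only scaling, which shifted the median gene by 0.11 log2 units.

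Promoter windows of 300 bases, 250 before and 50 after an annotated start, were taken from RefSeq (GRCm38.p6), which gave 11 windows for 6 of the 9 genes. Those of Rbp4, the gene the set was picked by, of Cyp26b1, which was also lower in both Ovx libraries, and of Aldh1a2, which was higher in both, are shown 5′ to 3′ on the strand of the gene (minus, minus and plus), with TATAAA in capitals.
Rbp4, outer start, chr19:38125272-38125571: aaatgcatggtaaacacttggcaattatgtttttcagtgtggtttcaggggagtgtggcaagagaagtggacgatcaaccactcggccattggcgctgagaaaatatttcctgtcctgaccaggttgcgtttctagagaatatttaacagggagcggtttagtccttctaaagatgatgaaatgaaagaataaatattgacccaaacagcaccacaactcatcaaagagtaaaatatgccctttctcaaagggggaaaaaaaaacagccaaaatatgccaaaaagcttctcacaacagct
Rbp4, inner start, chr19:38124762-38125061: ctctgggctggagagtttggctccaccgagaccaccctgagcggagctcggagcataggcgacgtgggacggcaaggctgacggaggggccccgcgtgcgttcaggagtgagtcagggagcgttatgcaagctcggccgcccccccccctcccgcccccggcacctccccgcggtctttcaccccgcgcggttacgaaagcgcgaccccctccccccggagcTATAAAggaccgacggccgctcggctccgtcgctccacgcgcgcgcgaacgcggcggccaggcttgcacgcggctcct
Cyp26b1, chr6:84593761-84594060: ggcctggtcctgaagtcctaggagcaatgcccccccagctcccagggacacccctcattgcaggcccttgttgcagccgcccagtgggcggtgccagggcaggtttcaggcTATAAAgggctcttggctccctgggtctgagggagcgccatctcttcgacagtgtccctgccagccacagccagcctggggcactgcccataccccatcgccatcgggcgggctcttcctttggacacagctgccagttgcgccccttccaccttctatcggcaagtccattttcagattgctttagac
Aldh1a2, chr9:71215539-71215838: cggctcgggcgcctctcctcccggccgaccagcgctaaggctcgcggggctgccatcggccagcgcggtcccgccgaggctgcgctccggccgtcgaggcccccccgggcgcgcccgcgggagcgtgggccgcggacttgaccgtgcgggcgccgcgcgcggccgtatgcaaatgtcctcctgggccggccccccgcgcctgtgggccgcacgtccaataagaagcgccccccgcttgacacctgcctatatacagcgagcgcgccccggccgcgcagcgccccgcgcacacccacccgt
The Rbp4 windows differed in base composition, with 40.7% G and C at the outer start and 72.0% at the inner start, against a median of 53.0% over all 32544 distinct windows of the table. The Aldh1a2 window had 78.0% and the Cyp26b1 window 62.3%. TATAAA, searched on the gene's strand, began at -28 from the inner Rbp4 start and at -139 from the RefSeq start of Cyp26b1, which has no GENCODE start within 50 bases, and 8.28% of all windows hold it. The half-sites of retinoic acid receptors AGGTCA and AGTTCA, searched on both strands, were found once in the 11 windows, as AGTTCA at 15 bases after a Stra6 start that is not printed, and 16.2% and 14.0% of all windows hold them. No match was found to the direct repeats DR1, DR2 and DR5 of the general half-site of retinoid receptors, which 0.615%, 0.473% and 0.326% of all windows hold. A match is a description of letters, and no match says only that these letters are not in these windows.

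Over all 9 genes, Rbp4 was the most abundant in sham cells and Aldh1a3 in Ovx cells. Levels between genes are compared as CPM per kb of exon. Aldh1a3 averaged 30.1 ± 2.49 CPM per kb in Ovx and 5.51 ± 3.22 CPM per kb in sham cells (SD, n = 2 each). Rbp4 averaged 24.4 ± 0.24 CPM per kb in Ovx and 60.7 ± 9.99 CPM per kb in sham cells. In Ovx cells the order was Aldh1a3, Rbp4, Rdh10, Crabp2, Cyp26b1, Aldh1a2, Stra6, Aldh1a1 and Crabp1. The library ranges of Rdh10 and Crabp2, of Aldh1a2 and Stra6 and of Stra6 and Aldh1a1 overlapped there, and the other neighbours were apart. In sham cells Rbp4 came first and apart from the rest, then Cyp26b1, Aldh1a3, Crabp2 and Rdh10, each overlapping its neighbour between 3.24 and 7.79 CPM per kb, then Aldh1a1, then Aldh1a2, Stra6 and Crabp1, each overlapping its neighbour. Rbp4 made up 14.4% and 13.1% of the summed CPM of the 9 genes in Ovx and 44.3% and 47.0% in sham libraries. Aldh1a3 made up 56.9% and 59.0% in Ovx and 9.18% and 18.6% in sham libraries. These are shares of CPM, not of CPM per kb of exon. They weigh Aldh1a3 (4617 bases of exon) more than Rbp4 (1343 bases) and do not give relative levels. In bulk samples fewer cells of a type and less RNA per cell cannot be told apart.

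**Figure D1:**
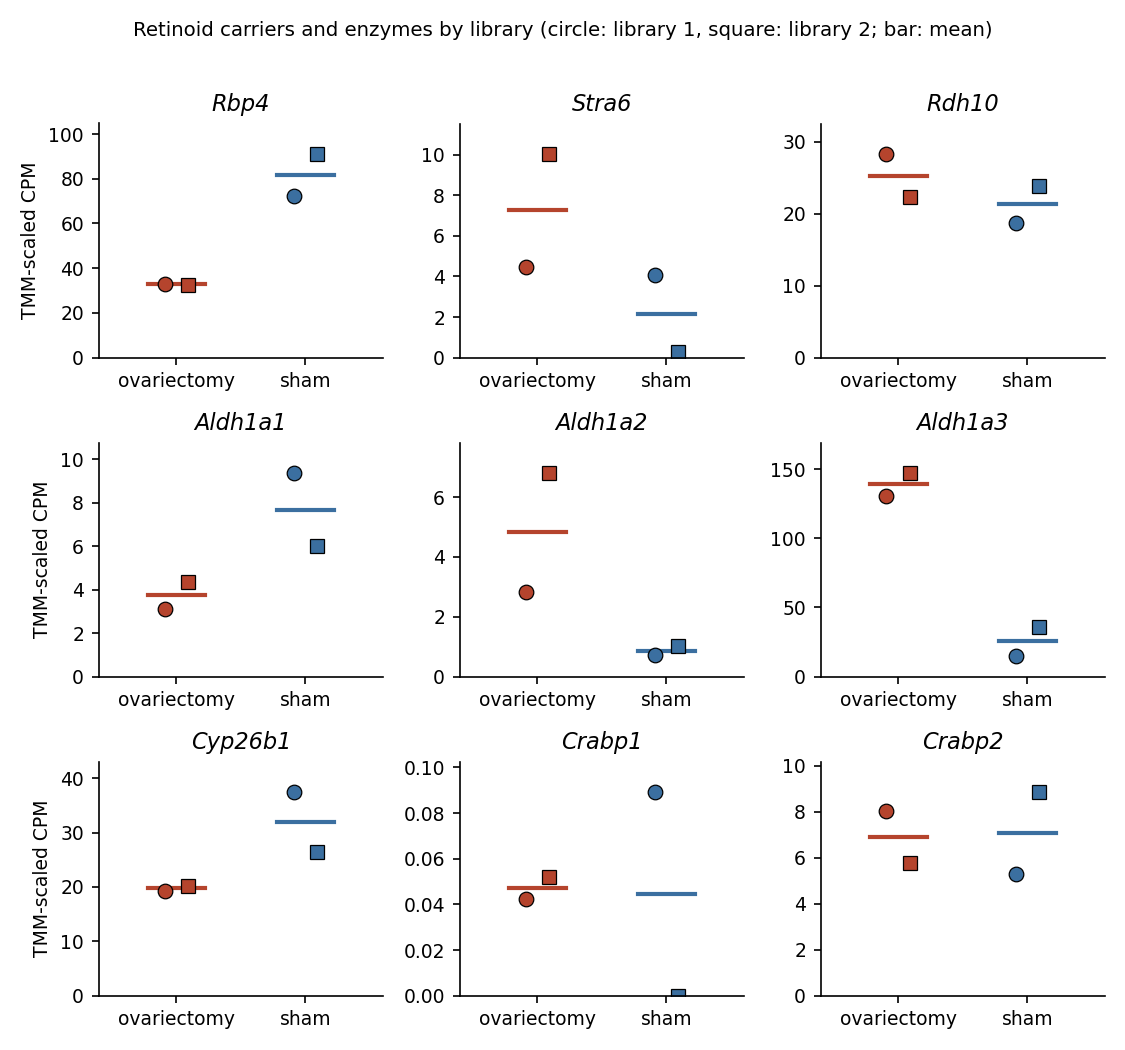
TMM-scaled CPM (linear axes from 0, a scale of its own per gene) of the 9 genes in each library, with Ovx libraries in red and sham libraries in blue, library 1 as a circle, library 2 as a square and the group mean as a bar. Rbp4 lay at 33.0 and 32.6 CPM in Ovx libraries, below both sham libraries, and Aldh1a3 at 131 and 147 CPM in Ovx libraries, above both sham libraries.

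Rbp4 (ENSMUSG00000024990, chromosome 19, 38116629 to 38125281, minus strand, GRCm38), the plasma carrier of retinol, had 781 and 627 counts in Ovx and 1616 and 2045 counts in sham libraries. This gave 33.0 and 32.6 CPM in Ovx and 72.1 and 91.0 CPM in sham libraries. The Ovx libraries were nearly equal, the sham libraries were further apart, and the groups did not overlap. The log2 fold change, ovariectomy over sham, was -1.31 ± 0.16 SE, and between -1.47 and -1.12 when 1 library was left out. Per kb of exon Rbp4 ranked 772 of the 17120 tested genes over the 4 libraries.

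Rbp4 is best known from liver and fat. Ttr, its partner in plasma, had 1 and 0 counts in Ovx and 0 counts in both sham libraries, and Alb had 13 and 5 counts in Ovx and 2 and 5 counts in sham libraries. Of the hepatocyte list of 6 genes, 2 were tested and 0 called by edgeR (1 at an unadjusted p under 0.05, Serpina1a, which DESeq2 and limma-voom called lower). The list summed to 195 and 156 CPM in Ovx and 290 and 258 CPM in sham libraries, nearly all of it Serpina1a at 194 and 155 CPM in Ovx and 290 and 257 CPM in sham libraries, with Apoc3 at 0 in all libraries. Serpina1a ranked 261 of the 17120 tested genes per kb of exon, above Rbp4, and was lower in both Ovx libraries as Rbp4 was. Its part, and that of liver cells, in the level of Rbp4 was not tested. Adipoq (adiponectin) was at 1.35 and 1.45 CPM in Ovx and 1.16 and 0.890 CPM in sham libraries. The 7 adipocyte genes summed to 9.81 and 10.3 CPM in Ovx and 2.45 and 4.32 CPM in sham libraries, higher in the Ovx libraries where Rbp4 was lower, with Cidec and Cfd at 0 counts in both sham libraries. Of the 5 tested, edgeR called 0 (2 at an unadjusted p under 0.05, and DESeq2 called 1 higher), and the part of fat cells in the level of Rbp4 was not tested.

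Cartilage and bone markers were lower in the libraries where Rbp4 was lower. By edgeR, 13 of the 15 chondrocyte genes fell and 0 rose, with a median log2 fold change of -0.85, against -0.02 over all genes tested. They summed to 79773 and 71102 CPM in Ovx and 136222 and 124913 CPM in sham libraries. By the same test 6 of 13 osteoblast genes fell and 1 rose (Dmp1), with a median of -0.38 and sums of 76102 and 69704 CPM in Ovx and 85294 and 114794 CPM in sham libraries. No gene of either list was at 0 in all libraries, and their part in the level of Rbp4 was not tested.

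The 5 genes whose log2 CPM, centred on the mean of the 4 libraries, lay nearest to those of Rbp4 among 10086 genes averaging 5 CPM or more were Bpifb5, Chac1, Cand2, Gm16070 and Sez6l. Their Euclidean distances to Rbp4 were between 0.09 and 0.14 log2 units. Chac1, an enzyme that breaks down glutathione, was the second nearest, at 6.38 and 6.54 CPM in Ovx and 13.6 and 16.6 CPM in sham libraries. The likeness rests on 4 libraries, and on the contrast that the set was picked by.

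Uptake by cells is the role of Stra6 (chromosome 9, 58063788 to 58153996), the membrane receptor of the Rbp4 complex. It had 106 and 193 counts in Ovx and 91 and 6 counts in sham libraries, or 4.48 and 10.02 CPM in Ovx and 4.06 and 0.267 CPM in sham libraries. Ovx 1 and sham 1 were close to each other, sham 2 was far below the rest, and the groups did not overlap. The log2 fold change of 1.74 ± 0.96 SE did not pass (edgeR adjusted p = 0.410). Sham 2 carried it: the log2 fold change was 0.84 without sham 2 and 4.73 without sham 1. Stra6 was called with no filter on low counts (edgeR adjusted p = 0.00748), where its SE was 0.48 in place of 0.96.

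Rdh10 (chromosome 1, 16105774 to 16133734), the dehydrogenase of the first oxidation step, was at 28.3 and 22.3 CPM in Ovx and 18.7 and 23.9 CPM in sham libraries. The groups overlapped, and the log2 fold change was 0.25 ± 0.22 SE (edgeR adjusted p = 0.644).

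Of the retinal dehydrogenases, which make retinoic acid, Aldh1a3 passed the test and Aldh1a1 and Aldh1a2 did not. Aldh1a3 (ENSMUSG00000015134, chromosome 7, 66390890 to 66427517, minus strand) had 3094 and 2832 counts in Ovx and 335 and 808 counts in sham libraries, or 131 and 147 CPM in Ovx and 14.9 and 36.0 CPM in sham libraries. Both Ovx libraries were several-fold above both sham libraries, and sham 2 was above sham 1. Aldh1a3 rose 5.46-fold (log2 fold change 2.45 ± 0.36 SE, edgeR adjusted p = 0.0128). Of its distinct stretches of 50 bases, 1.152% also occur in other genes, mainly in Casc4. The log2 fold change was 1.95 without sham 1 and 3.23 without sham 2. The call was lost without Ovx 1 (adjusted p = 0.298) and without Ovx 2 (0.301), where edgeR called 0 genes of the whole table (1788 and 1618 at an unadjusted p under 0.05).

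Aldh1a2 (chromosome 9, 71215789 to 71296243), the main enzyme of the early embryo, had 67 and 131 counts in Ovx and 16 and 23 counts in sham libraries, or 2.83 and 6.80 CPM in Ovx and 0.714 and 1.02 CPM in sham libraries. Both Ovx libraries were above both sham libraries, with Ovx 2 well above Ovx 1. The log2 fold change of 2.46 ± 0.61 SE did not pass (edgeR adjusted p = 0.0776). It was called with DESeq2 (adjusted p = 0.0139), with no filter on low counts (0.00480) and with the replicate block (0.0447). It was not called with limma-voom (2.28, adjusted p = 0.149). The log2 fold change was 2.22 without sham 1, 2.75 without sham 2, 2.98 without Ovx 1 and 1.71 without Ovx 2.

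Aldh1a1 (chromosome 19, 20492715 to 20643465) was at 3.13 and 4.36 CPM in Ovx and 9.37 and 6.01 CPM in sham libraries. The groups did not overlap, but the nearest libraries of the 2 groups were close. The log2 fold change of -1.04 ± 0.38 SE did not pass (edgeR adjusted p = 0.201). It was -0.68 without sham 1 and -1.31 without sham 2. Of its distinct stretches of 50 bases, 3.06% also occur in other genes, mainly in Aldh1a7, a close mouse paralog, so reads of these genes can be split. Aldh1a7 had 24 and 18 counts in Ovx and 4 and 14 counts in sham libraries.

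Summed per kb of exon, the retinal dehydrogenases gave 30.2 and 35.7 CPM per kb in Ovx and 5.45 and 9.46 CPM per kb in sham libraries. Aldh1a3 held 93.8% and 89.1% of that sum in Ovx and 59.4% and 82.4% in sham libraries. Aldh1a1 held 2.10% and 2.47% in Ovx and 34.8% and 12.9% in sham libraries, while the share of Aldh1a2 was 4.14% and 8.41% in Ovx and 5.79% and 4.78% in sham libraries. Aldh1a3 was the leading enzyme in every library, and the share of Aldh1a1 was lower in both Ovx libraries. That lower share follows from Aldh1a3 and Aldh1a2 being higher and Aldh1a1 lower in both Ovx libraries, and is not a further result. With 2 libraries per group an exact permutation test of such a sum or share cannot go below p = 0.333.

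Most fibroblast markers, and some of pericytes and smooth muscle, were higher in the libraries where Aldh1a3 was higher. Of 11 tested fibroblast genes, 7 were higher and 0 lower by edgeR, with a median log2 fold change of 1.88 and sums of 9105 and 10558 CPM in Ovx and 5826 and 8660 CPM in sham libraries. DESeq2 called 7 higher and 1 lower. Dcn, not called, held most of these sums, at 5536 and 6181 CPM in Ovx and 4033 and 6380 CPM in sham libraries. Lum was lower by level, at 984 and 850 CPM in Ovx and 1136 and 1195 CPM in sham libraries. Of the 9 genes for pericytes and smooth muscle, 3 rose (Rgs5, Acta2 and Des) and 0 fell, with a median of 1.07 and sums of 614 and 692 CPM in Ovx and 344 and 370 CPM in sham libraries. Rgs5 was at 295 and 361 CPM in Ovx and 5.66 and 46.4 CPM in sham libraries. Cspg4, most of the sham sum, was not called but lower, at 214 and 222 CPM in Ovx and 284 and 266 CPM in sham libraries. The 9 endothelial genes summed to 50.6 and 75.8 CPM in Ovx and 15.2 and 53.3 CPM in sham libraries, with 0 called by edgeR, DESeq2 or limma-voom (1 at an unadjusted p under 0.05) and Cdh5 and Emcn at 0 in sham 1. The 11 leukocyte genes, of which 1 of 10 tested rose (Mpo), summed to 166 and 265 CPM in Ovx and 96.0 and 68.7 CPM in sham libraries. The 11 erythroid genes, of which 4 of 10 tested were higher, summed to 184 and 257 CPM in Ovx and 56.6 and 41.0 CPM in sham libraries. Rhag was at 0 in both sham libraries, no marker of these lists was at 0 in all libraries, and their part in the levels of the retinal dehydrogenases was not tested.

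**Figure D2:**
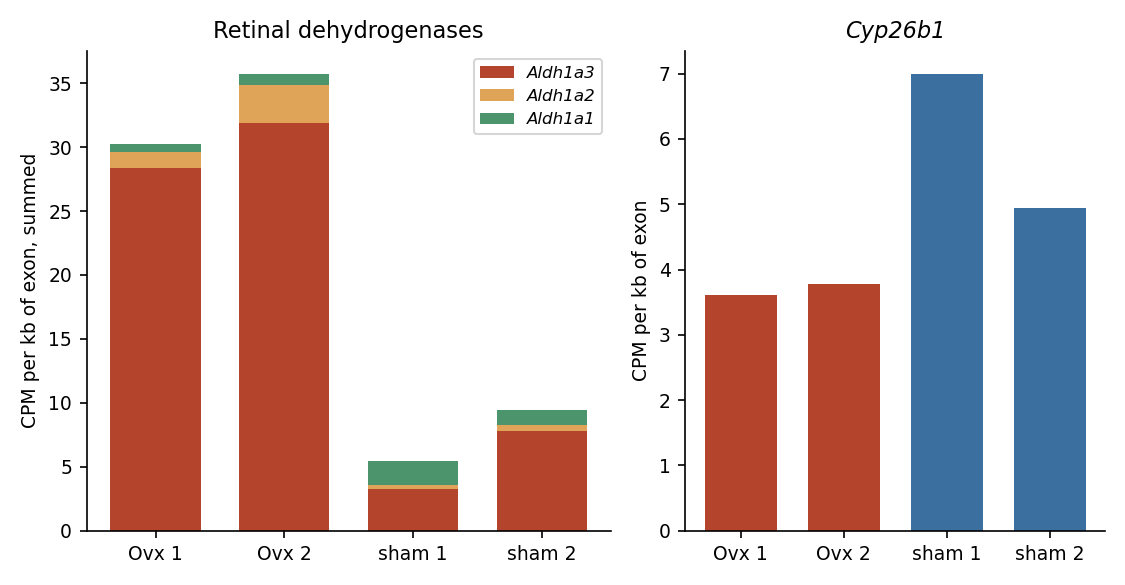
Left, stacked levels of Aldh1a3, Aldh1a2 and Aldh1a1 in each library, and right, the level of Cyp26b1, both in CPM per kb of exon on linear axes from 0. The stacks reach 30.2 and 35.7 in Ovx and 5.45 and 9.46 in sham libraries, mostly Aldh1a3, while Cyp26b1 stands at 3.60 and 3.78 in Ovx and 7.0 and 4.94 in sham libraries.

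Breakdown of retinoic acid is the role of Cyp26b1 (chromosome 6, 84571414 to 84593908, minus strand), a cytochrome P450. It had 456 and 390 counts in Ovx and 840 and 594 counts in sham libraries, or 19.3 and 20.3 CPM in Ovx and 37.5 and 26.4 CPM in sham libraries. The Ovx libraries were close together and below both sham libraries. The log2 fold change of -0.69 ± 0.22 SE did not pass (edgeR adjusted p = 0.138), although it was called with no filter (0.0373). It was -0.91 without sham 2 and -0.42 without sham 1. The summed retinal dehydrogenases stood at 8.39 and 9.45 times the level of Cyp26b1 per kb in Ovx and at 0.778 and 1.91 times in sham libraries. That the 2 groups did not overlap in this ratio follows from the sum being higher and Cyp26b1 lower in both Ovx libraries. It is not a further result. Of the other breakdown enzymes, Cyp26a1 had between 15 and 30 counts in each library and Cyp26c1 had 0 counts in all 4.

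The cytosolic binders of retinoic acid were at very different levels. Crabp2 (chromosome 3, 87948666 to 87953376), which passes retinoic acid on to its receptor, was at 8.03 and 5.77 CPM in Ovx and 5.31 and 8.86 CPM in sham libraries. The groups overlapped, and the log2 fold change of -0.04 ± 0.36 SE (edgeR adjusted p = 0.980) turned positive with library totals as the only scaling, with limma-voom, without Ovx 2 and without sham 2. Crabp1 (chromosome 9, 54764748 to 54773110) had 1 and 1 counts in Ovx and 2 and 0 counts in sham libraries and was not tested. This lies under a floor of 3 counts per library, worth between 0.127 and 0.156 CPM, so no difference was detectable at this depth.

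Taken over the set, 8 of 9 genes passed the filter on low counts. Beside Rbp4, Aldh1a3 was called higher and none of the other 6 tested genes was called, where 4.18% of all tested genes were called, 2.98% higher and 1.20% lower. Both Ovx libraries lay below both sham libraries for Rbp4, Aldh1a1 and Cyp26b1 and above them for Aldh1a2, Aldh1a3 and Stra6, and they overlapped for Rdh10 and Crabp2. Of all genes tested, 49.3% did not overlap, 23.9% below and 25.5% above. As Rbp4 was the reason for the choice in the same contrast, nothing is read from these counts.

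**Figure D3:**
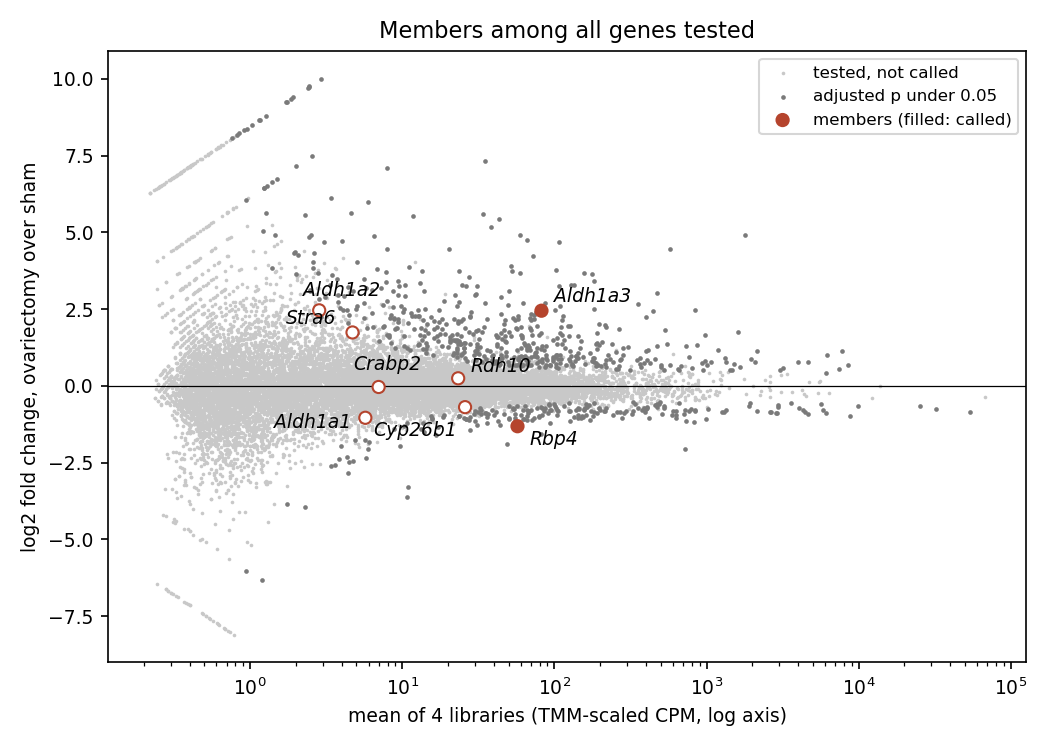
Log2 fold change, ovariectomy over sham, against the mean of the 4 libraries in TMM-scaled CPM (log axis) for the 17120 genes tested, in light grey where not called and in dark grey where the edgeR adjusted p is under 0.05. Rings are the 8 tested retinoid genes, filled for Rbp4 at -1.31 and Aldh1a3 at 2.45. The set was picked by Rbp4 in this same contrast, so its fill is a description and not evidence. The other 6 lie inside the cloud of genes that were not called.

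Of 65 other genes of retinoid uptake, storage, oxidation, breakdown, signalling and response, 49 were tested, 1 was higher and 0 were lower by edgeR (8 at an unadjusted p under 0.05). Called genes were thus 2.04% of them, against 4.18% of all genes tested. DESeq2 called 3 higher and 1 lower, and limma-voom 2 higher and 1 lower. Their median log2 fold change was -0.04, against -0.02 over all genes tested. The one that rose was Rarres2 (chromosome 6, 48569696 to 48572789), named for its response to retinoids and coding for the secreted protein chemerin. It was at 17.2 and 20.9 CPM in Ovx and 1.47 and 2.40 CPM in sham libraries (log2 fold change 3.29 ± 0.33 SE, edgeR adjusted p = 0.00450), without overlap. The call was lost without Ovx 1 (adjusted p = 0.191) and without Ovx 2 (0.187). It shares 33.6% of its exon length with Lrrc61, and its value carries that uncertainty. Other responders were not called: of the 12 target genes, 7 were tested with a median log2 fold change of -0.04. Tgm2, a transglutaminase, the most abundant of them per kb and with 21.8% of its exon length shared with other genes, was at 344 and 357 CPM in Ovx and 304 and 272 CPM in sham libraries (0.28 ± 0.11 SE, edgeR adjusted p = 0.245).

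Of 10 other carriers and uptake genes, 7 were tested and 0 called (1 at an unadjusted p under 0.05). Scarb1, a lipoprotein receptor that also takes up carotenoids, was at 122 and 114 CPM in Ovx and 189 and 159 CPM in sham libraries (log2 fold change -0.56 ± 0.13 SE, edgeR adjusted p = 0.0695). It was called lower with DESeq2 (adjusted p = 0.00279), limma-voom (0.0333), over genes averaging 5 CPM or more (0.0205), unfiltered (0.00813) and with the replicate block (0.0317). The log2 fold change of Scarb1 was -0.43 without sham 1 and -0.67 without sham 2. Of 7 storage genes, 6 were tested and 0 called by edgeR (2 at an unadjusted p under 0.05, of which DESeq2 and limma-voom called Lpl, lipoprotein lipase, higher), with Pnpla2, a lipase, at 41.3 and 51.3 CPM in Ovx and 20.9 and 35.6 CPM in sham libraries (0.71 ± 0.26 SE, edgeR adjusted p = 0.205). Pnpla2 was called higher unfiltered (edgeR adjusted p = 0.00550) and with the replicate block (0.0424). Its log2 fold change was 1.16 without sham 2 and 0.38 without sham 1. Lrat, which makes retinyl esters for storage, had 21 counts in sham 1 and 0 in the other 3 libraries. Of 19 other genes of retinol and retinal interconversion, 15 were tested and 0 called (1 at an unadjusted p under 0.05), and the most abundant per kb, Dhrs7, was at 89.5 and 79.9 CPM in Ovx and 58.7 and 59.9 CPM in sham libraries (0.51 ± 0.13 SE, edgeR adjusted p = 0.0866). Dhrs7 was called higher with DESeq2 (adjusted p = 0.0288), library totals (0.0402), unfiltered (0.0340) and over genes averaging 5 CPM or more (0.0390). Of 8 genes of other retinal oxidation, carotene cleavage and breakdown, 5 were tested and 0 called (also 0 at an unadjusted p under 0.05), with Bco2 the most abundant per kb at 0.930 and 0.987 CPM in Ovx and 1.87 and 0.534 CPM in sham libraries.

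All 9 nuclear receptors and corepressors were tested and 0 were called by edgeR, DESeq2 or limma-voom (2 at an unadjusted p under 0.05). Rarg, the retinoic acid receptor of cartilage, was at 199 and 189 CPM in Ovx and 216 and 215 CPM in sham libraries (log2 fold change -0.15 ± 0.11 SE, edgeR adjusted p = 0.556). Rara was at 46.8 and 47.8 CPM in Ovx and 38.3 and 34.6 CPM in sham libraries (0.38 ± 0.15 SE, edgeR adjusted p = 0.230). Per kb, Rarg held 80.1% and 79.5% of the summed retinoic acid receptors in Ovx and 84.5% and 86.0% in sham libraries, so it was the leading receptor in both groups. Rarb, with 38.4% of its exon length shared with other genes, was at 4.65 and 2.49 CPM in Ovx and 2.77 and 1.56 CPM in sham libraries. Of their partners, Rxra was at 15.1 and 8.57 CPM in Ovx and 13.6 and 20.1 CPM in sham libraries, and Rxrb at 12.7 and 14.3 CPM in Ovx and 14.4 and 14.4 CPM in sham libraries. Rxrg had 18 and 27 counts in Ovx and 0 and 8 counts in sham libraries.

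**Figure D4:**
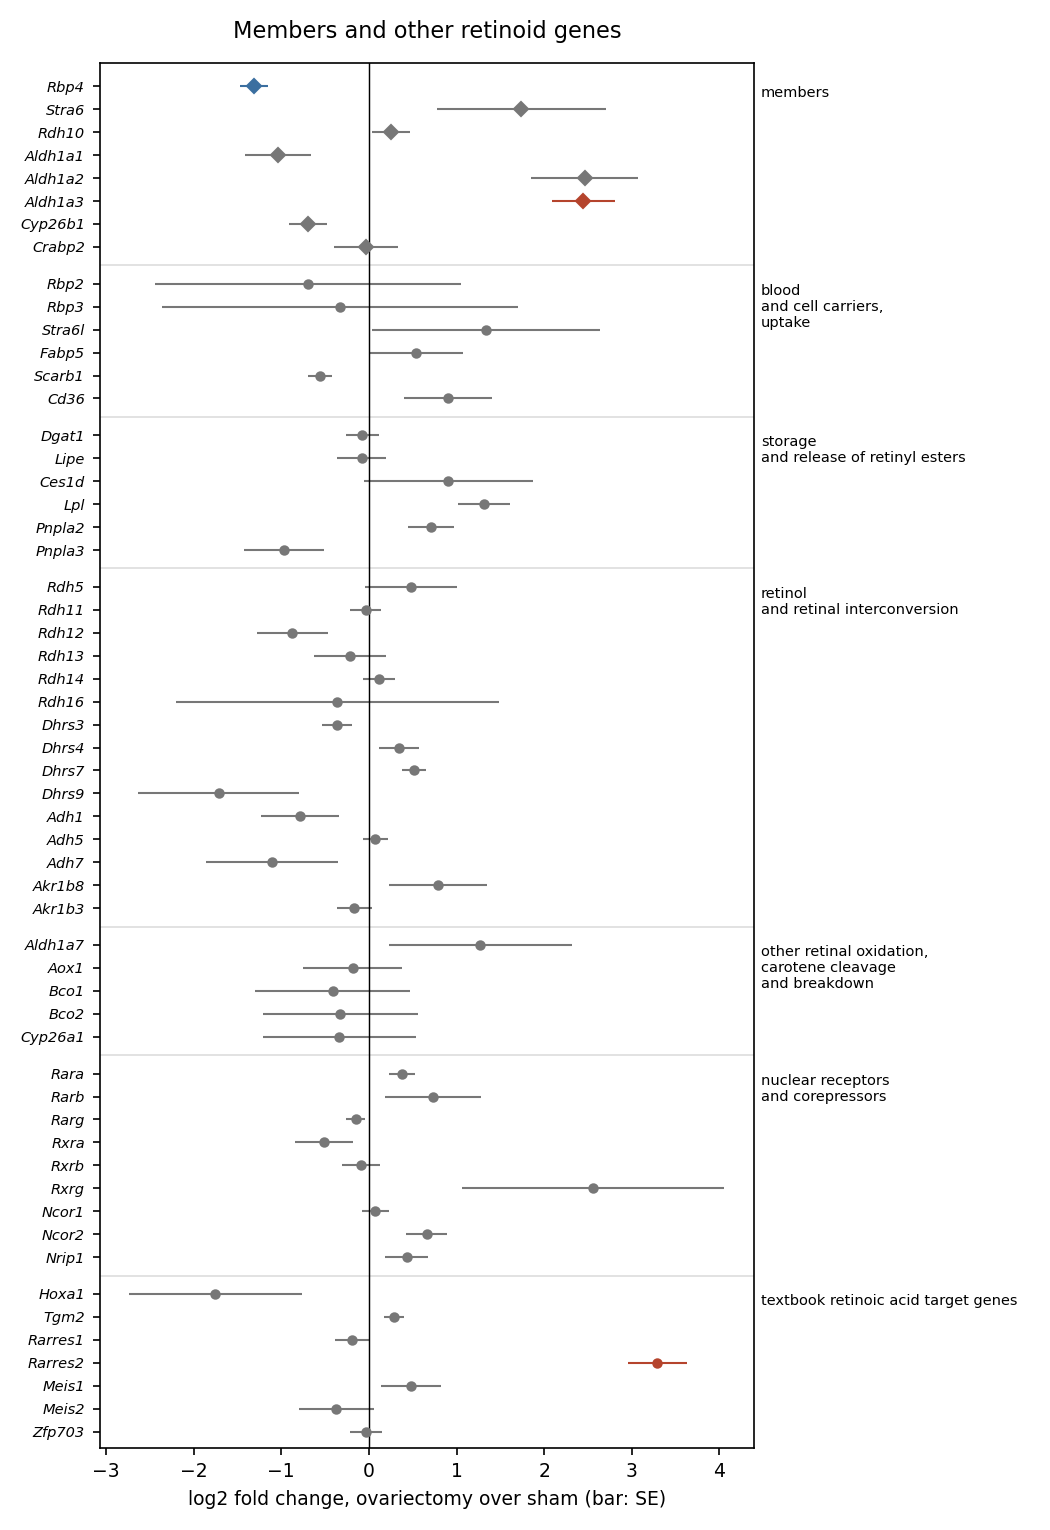
Log2 fold change, ovariectomy over sham, with its SE, for the 8 tested retinoid carriers and enzymes (diamonds) and 48 of the 49 other tested retinoid genes (circles), grouped by role. Red marks a gene called higher (Aldh1a3 at 2.45 and Rarres2 at 3.29), blue one called lower (Rbp4 at -1.31, by which the set was picked), and grey genes were not called.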

How the data were processed

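The authors deposited 1 table of raw read counts per Ensembl gene for the 4 libraries. Per the submitters' processing notes, Trim Galore 0.6.6 and featureCounts 2.0.1 were used with the build GRCm38 (mm10), while no source used here gives the aligner, annotation release, strand setting or filters. GENCODE M21 (GRCm38) gave symbols, positions and exon lengths for 55227 of 55487 IDs. Genes were kept by filterByExpr (17120 genes), scaled by TMM and compared over all genes with the two-sided quasi-likelihood test of edgeR 4.0.16 in R 4.3.3, with group as the only term and Benjamini-Hochberg adjustment. The common biological coefficient of variation was 0.317. A fold change is ovariectomy over sham, its SE was derived from the F statistic, and 1 count is worth between 0.0423 and 0.0519 CPM. Floors cover counting error only. The edgeR script was tested on simulated data. Alternatives were DESeq2 1.42.0, limma-voom (limma 3.58.1), other scalings and filters, the replicate block and leaving out each library.

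Named are the 9 genes, called genes and the most abundant tested gene (per kb) of each of 6 retinoid lists, the nuclear receptors, the sort antigens and the 5 genes nearest to Rbp4. Other genes were named after their values were seen. Of the tested genes of the retinoid lists, 1 is not reported here by name, though the counts and medians of its list include it. The members and all lists were chosen with earlier results of these data known.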

Additional observations from a re-analysis of the deposited data

How the results depend on the processing

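A fit without 1 library takes its spread from the 2 libraries of the other group alone. In log2 CPM the Ovx libraries correlated at 0.959 and the sham libraries at 0.930. Counts of calls in these fits therefore cannot be compared with each other or with the main fit. Leaving out 1 library in turn gave between 0 and 1277 genes called higher and between 0 and 558 lower over the whole table, between 0 and 3 of the 9 retinoid genes higher and between 0 and 3 lower, and between 0 and 5 of the other retinoid genes higher and between 0 and 2 lower. The zeros came without Ovx 1 or without Ovx 2, except for other retinoid genes called lower, which were 0 in all but 1 of these fits.

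Over the whole table, against 510 higher and 206 lower, DESeq2 called 923 and 483, no filter 1112 and 544, and limma-voom called 313 lower. A mean of at least 5 CPM gave 406 lower and the replicate block 329 lower. Of the 9 genes, against 1 higher and 1 lower, DESeq2 called 2 higher, the replicate block 2 higher, and no filter 3 higher and 2 lower. The 1 lower of the main fit is Rbp4, by which the set was picked, and is not read as a result. Of the other retinoid genes, against 1 higher and 0 lower, library totals gave 3 higher, DESeq2, a mean of at least 5 CPM and the replicate block each 3 higher and 1 lower, limma-voom 2 higher and 1 lower, and no filter 5 higher and 1 lower. The cause of these differences was not tested. With no filter, 36106 genes entered the fit and the spread of a gene was estimated otherwise. The SE was then 0.48 for Stra6 (0.96 with the filter) and 0.17 for Aldh1a3 (0.36), but 0.42 for Aldh1a1 (0.38). Unfiltered p-values therefore do not rest on the same spread between libraries as those of the main fit.

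Directions turned for Crabp2 (log2 fold change 0.0713 with library totals, 0.00918 with limma-voom, and between -0.35 and 0.39 with 1 library left out, positive without Ovx 2 and without sham 2), Rxrb (0.0121 with library totals, and between -0.17 and 0.0063 with 1 left out, positive without Ovx 1), Bco2 (between -0.95 and 0.84, positive without sham 1) and Itgav (-0.00954 with upper-quartile scaling). The other tested members kept their direction under all alternatives run. Labels give both groups the replicate numbers 1 and 2 but nothing that ties same-numbered libraries, whose deviations correlated at 0.00429, so the numbers were not taken as pairs. Aldh1a2 and Stra6 fell under a mean of 5 CPM and have no value with that filter. Depth limits Crabp1, with at most 2 counts in a library, and the low counts of Aldh1a2 in sham libraries. Stra6 had 91 counts in sham 1 and 6 in sham 2, so its limit is the difference between the sham libraries.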

Other observations

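Of 49 tested genes within 250 kb of the 9 genes, edgeR called 3 (6.12%, against 4.18% of all genes tested), all higher, a share near that of the whole table. Beside Aldh1a2, Aqp9, an aquaporin, was at 3.04 and 2.60 CPM in Ovx and 0.134 and 0.0445 CPM in sham libraries (log2 fold change 4.90 ± 0.88 SE, edgeR adjusted p = 0.0259), 1 of 3 neighbours tested. Beside Aldh1a1, which was lower in both Ovx libraries, Anxa1, an annexin, was at 838 and 819 CPM in Ovx and 205 and 262 CPM in sham libraries (1.83 ± 0.14 SE, edgeR adjusted p = 0.00186), 1 of 2 tested. Beside Stra6, Loxl1, a lysyl oxidase, was at 157 and 167 CPM in Ovx and 58.5 and 68.0 CPM in sham libraries (1.36 ± 0.14 SE, edgeR adjusted p = 0.00439), 1 of 8 tested. None of the 5 tested neighbours of Rbp4 and none of the 4 of Aldh1a3 was called, with log2 fold changes between -1.76 and 1.03 and between -0.69 and 1.33. These neighbours were named after their values were seen.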
